A study of Mus musculus with 12 samples.

Results

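Mir-128 is a brain miRNA made from the paralogous genes Mir128-1 and Mir128-2, and it gave 3 of the 513 rows of a small RNA table from mouse hippocampus. The rows were chosen by name, as those whose first name is Mir-128 or one of its paralogues. They were the 3p guide arm that the paralogues share (Mir-128-P1_3p with Mir-128-P2_3p), the passenger arm Mir-128-P1_5p* and the passenger arm Mir-128-P2_5p*. The libraries came from 12 male wild-type C57BL/6J mice, a standard inbred strain. Of these, 6 were F2 descendants, through the male line, of exercised grandfathers, called the exercised lineage here. The other 6 were F2 descendants of sedentary grandfathers, called the sedentary lineage. The labels give exercise for the grandfathers only, and no age. Bulk tissue was used, so fewer cells of a type and less RNA per cell cannot be told apart.

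A miRNA gene is transcribed as a hairpin, whose arms are cut out as a short duplex. The guide arm is loaded into Argonaute and pairs with messenger RNAs mainly through its seed, bases 2 to 8, while the passenger arm is mostly degraded. MiR-128 is enriched in neurons, where it is known to restrain excitability, and in mice loss of the Mir128-2 gene causes hyperactivity and fatal seizures. Its host genes encode RNA-binding proteins with an R3H domain, R3hdm1 and Arpp21, and Arpp21 is known as a forebrain phosphoprotein regulated by cyclic AMP.

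Both hairpins are shown because their guide arm, in capitals, is identical, so that its reads cannot be assigned to a gene. The sequences are RefSeq's, build GRCm38.p6, written 5′ to 3′.
Mir128-1: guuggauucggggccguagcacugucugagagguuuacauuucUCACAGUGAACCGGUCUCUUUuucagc
Mir128-2: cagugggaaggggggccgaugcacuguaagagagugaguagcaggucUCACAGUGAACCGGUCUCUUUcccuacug
Mir128-1 lies on the plus strand at chr1:128202361-128202430, in a 14107-base intron of R3hdm1 (128197098 to 128211204). Mir128-2 lies on the minus strand at chr9:112118636-112118711, in an intron of Arpp21 whose shortest annotated form spans 2415 bases (112116768 to 112119182). In the GENCODE annotation of the same build, each is on its host's strand, and 0 exons of any host transcript overlap it. RefSeq places 0 other miRNAs inside either host gene.

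The mature arms follow, with bases 2 to 8 in capitals.
miR-128-3p: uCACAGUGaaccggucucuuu
miR-128-1-5p: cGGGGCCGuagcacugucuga
miR-128-2-5p: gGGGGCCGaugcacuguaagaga
The passenger arms have the same seed, and 2 of 1679 mature names in RefSeq's table carry it, namely these arms. Over the first 21 bases, counted from the 5′ end, they differ at 5 positions (C1G, U9A, A10U, C18A and U19A, with the Mir128-1 base first), and miR-128-2-5p has 2 more bases at its 3′ end. The passenger rows are therefore the only Mir-128 rows that tell the genes apart. The deposited names follow MirGeneDB, and P1 and P2 were matched to Mir128-1 and Mir128-2 by number, a pairing that the table itself does not state.

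No other mature name in RefSeq's table has the guide's seed at bases 2 to 8. The nearest in sequence are shown because they hold the same bases, in capitals, shifted by 1 position.
miR-27a-3p: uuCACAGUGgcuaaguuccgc
miR-27b-3p: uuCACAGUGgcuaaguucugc
miR-216a-3p: CACAGUGgucucugggauuaug
The guide and miR-27a-3p share a run of 8 bases, which starts at base 1 of the guide and base 2 of miR-27a-3p. The letters of the guide's seed begin at base 1 of miR-216a-3p and at base 4 of miR-497b.

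A level is given as a normalized count: an arm's reads over the size factor of its library, with no scaling to length. Depth here is the inferred reads summed over all miRNA rows, not all reads sequenced. It ran from 6862623 to 10219856 reads per library. Means were 8296923 ± 1299072 in exercised-lineage and 8587985 ± 1216807 in sedentary-lineage mice (SD, n = 6 each). The 13 neuron-enriched miRNA families, Mir-128 among them, made up 39.7% ± 2.23 of counts in exercised-lineage mice and 39.6% ± 1.76 in sedentary-lineage mice (SD, n = 6 each). Markers of choroid plexus and ependyma made up 0.555% to 2.73% in exercised-lineage and 0.518% to 2.41% in sedentary-lineage mice. Those of endothelial and mural cells made up 4.01% to 8.33% in exercised-lineage and 4.15% to 8.92% in sedentary-lineage mice. Oligodendrocyte, erythroid, microglial and leukocyte, and liver and muscle lists each reached 0.242% at most in any library, and 0 rows of these lists were called between the lineages. In 1 mouse of each lineage the Mir-128-P2 passenger stood apart, and its results are given with and without them. No 2 libraries matched within counting noise (lowest chi-square per degree of freedom 70.5 over 66 pairs).

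The shared guide arm was the second most abundant of all rows in both lineages, and no difference between them beyond the spread of the mice was detected. In the exercised lineage it ran from 417890 normalized counts in mouse 6 through a median of 503651 to 587359 in mouse 2. In the sedentary lineage it ran from 455130 in mouse 2 through a median of 553133 to 692499 in mouse 3. The groups overlapped: 5 of 6 exercised-lineage mice were below the sedentary median, and the highest exercised-lineage mouse was below 3 sedentary-lineage mice (1, 3 and 6). Means were 500812 ± 60959 in exercised-lineage and 570760 ± 108226 in sedentary-lineage mice (SD, n = 6 each), a fold of -0.18 on the log2(value + 1) scale, exercised minus sedentary lineage (SE 0.13, 95% confidence interval -0.45 to 0.10, limma adjusted p = 0.596). On a linear scale that is a ratio of 0.885 with an interval of 0.733 to 1.07. With 364992 to 697457 guide reads per library, counting error is small beside these differences between mice. The exact Poisson interval of exercised-lineage mouse 6, for example, was 416626 to 419158 normalized counts, and it covers counting error only.

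**Figure D1:**
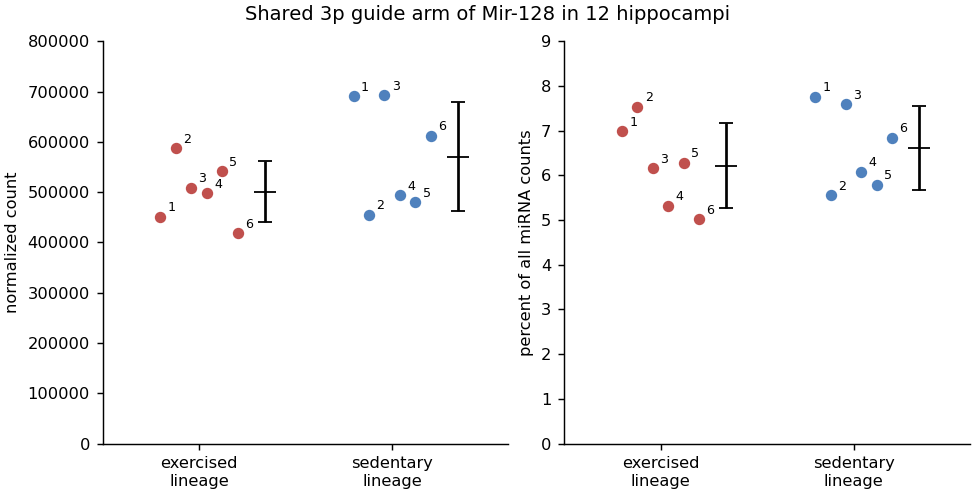
Level of the shared Mir-128 3p guide arm in each library, as a normalized count (left) and as a percent of all miRNA counts (right). Points are mice with their label numbers and black bars are the mean ± SD of 6 mice. The lineages overlap in both panels, with means of 500812 normalized counts and 6.22% in exercised-lineage mice against 570760 and 6.60% in sedentary-lineage mice.

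As a share of all counts, which does not depend on the size factors, the guide averaged 6.22% ± 0.956 in exercised-lineage mice and 6.60% ± 0.939 in sedentary-lineage mice (SD, n = 6 each). The difference was -0.39 percentage points (exact permutation p = 0.476, 0.714 adjusted over 3 tests, two-sided). The lowest shares were 5.02% in exercised-lineage mouse 6 and 5.32% in exercised-lineage mouse 4, and the highest was 7.76% in sedentary-lineage mouse 1. Submitter codes place the libraries in 4 sets of 3 that share a stem (R31, R41, S11 and S41), whose meaning the labels do not give. Each stem lies in 1 lineage, with 2 stems per lineage. With the stem as a random block, the correlation within stems over all arms was -0.0041 and the guide's limma adjusted p was 0.590. Means of the guide were 515728 in R31 and 485897 in R41 of the exercised lineage, against 612873 in S11 and 528648 in S41 of the sedentary lineage. Without the R41 libraries the difference in share turned to 0.29 percentage points (exact permutation p = 0.679).

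In order of level, the guide stood between Mir-9 5p, known from neurogenesis, and the 5p arm of Mir-218, a miRNA of Slit introns. It was the second in 9 of 12 libraries, the third in 1 and the fourth in 2. The row of Mir-9 was higher in every library. The guide was above Mir-218 in 10 of 12 libraries and above Mir-143_3p, a miRNA of smooth muscle, in 9. The exceptions for Mir-218 were exercised-lineage mice 4 and 6. The exceptions for Mir-143_3p were the same mice and sedentary-lineage mouse 4. The guide's coefficient of variation within lineages was 15.9%, in the 11th place from the lowest among the 20 most abundant rows. By lineage it was 12.2% among exercised-lineage and 19.0% among sedentary-lineage mice.

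All 3 Mir-128 rows passed the filter on low values, a mean of at least 10, and 0 of 3 were called between the lineages at an adjusted p below 0.05. Over all 474 arms tested with limma, 0% were called. An unadjusted p below 0.05 was reached by 34 arms (7.17%) and by 0 of the 3 Mir-128 rows. The groups overlapped for all 3 Mir-128 rows, and groups that do not overlap were found in 0% of all arms. The median fold of all tested arms was -0.0013, with 236 above 0 and 238 below.

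Over all libraries, the mean of the guide was 2851 times that of the P1 passenger and 3189 times that of the P2 passenger. The P1 passenger took places 262 to 299 among the 513 rows, and the P2 passenger 221 to 339. Within lineages, the SD on the log2 scale was 0.23 for the guide, 0.26 for the P1 passenger and 0.75 for the P2 passenger. Mir-128-P1_5p*, the passenger of the R3hdm1 gene by its number, ran from 150 normalized counts (149.6, mouse 6) through a median of 193 to 229 (mouse 1) in the exercised lineage. In the sedentary lineage it ran from 132 (mouse 6) through a median of 189 to 217 (mouse 3). The lineages covered nearly the same range, with 3 of 6 exercised-lineage mice below the sedentary median. Means were 192 ± 28.7 in exercised-lineage and 184 ± 37.2 in sedentary-lineage mice (SD, n = 6 each), a fold of 0.07 (SE 0.15, 95% confidence interval -0.25 to 0.39, limma adjusted p = 0.901). The counts rest on 146 to 254 reads per library, and the intervals for counting error are wider, relative to the level, than for the guide. For exercised-lineage mouse 1 the exact Poisson interval was 201 to 259 normalized counts, and for sedentary-lineage mouse 6 it was 111.7 to 156. The fold was -0.017 without sedentary-lineage mouse 6.

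Mir-128-P2_5p*, the passenger of the Arpp21 gene by its number, was far above its usual level in 1 mouse of each lineage. In the exercised lineage mouse 4 stood at 397 normalized counts and the other 5 mice lay between 76.8 and 184, with a median of 134 over all 6. In the sedentary lineage mouse 2 stood at 384 and the other 5 mice lay between 95.2 and 126, with a median of 126 over all 6. The lower of these 2 high values was 2.09 times the highest and 3.06 times the median of the other 10 libraries. These values were singled out after they were seen. The intervals that follow treat reads as independent molecules and leave out the spread between mice. Exercised-lineage mouse 4 had 291 reads (exact Poisson interval 353 to 446 normalized counts), sedentary-lineage mouse 2 had 375 reads (346 to 425), and the next highest, exercised-lineage mouse 1, had 199 (159 to 212).

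The rest of Mir-128 did not follow in these mice. Exercised-lineage mouse 4 had 202 normalized counts of the P1 passenger and 498369 of the guide, and sedentary-lineage mouse 2 had 159 and 455130, all inside the range of the other libraries. As a share of all counts, the guide held 5.32% and 5.55% in these mice, toward the low end of the other libraries (5.02% to 7.76%). Among 474 tested arms, the step from the third to the second highest library was largest for Mir-128-P2_5p* (1.06 on the log2 scale). The next was 0.81, for the passenger Mir-23-P2_5p*. Exercised-lineage mouse 4 and sedentary-lineage mouse 2 were the highest pair in 5 arms, and the step above the other 10 libraries was 0.03 or less in the other 4. These features were singled out after the values were seen. Exercised-lineage mouse 4 also had the lowest depth and the highest share of neuron-enriched miRNAs (42.3%). Sedentary-lineage mouse 2 had 8000322 reads and a share of 39.3%, both inside the range of the other libraries. Sedentary-lineage mouse 2 had the highest share of erythroid miRNAs (0.0149%, against 0.00733% to 0.0113% in the 10 libraries other than these 2). In exercised-lineage mouse 4 the erythroid share was 0.00797%, inside that range. The part of depth and of these shares in the passenger level was not tested.

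**Figure D2:**
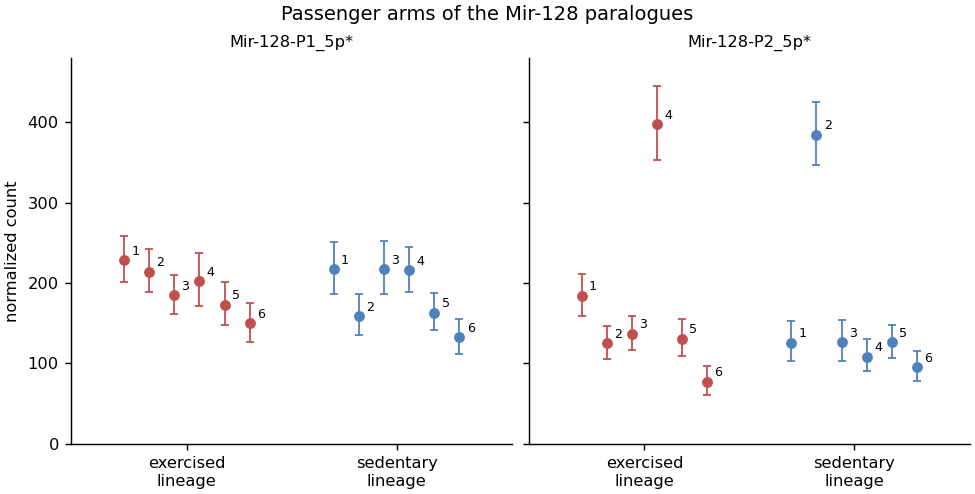
Normalized counts of Mir-128-P1_5p* (left) and Mir-128-P2_5p* (right) in each mouse of the exercised and the sedentary lineage, with exact 95% Poisson intervals for counting error and label numbers beside the points. The P1 passenger stays between 132 and 229 throughout, while the P2 passenger stands at 397 in exercised-lineage mouse 4, at 384 in sedentary-lineage mouse 2 and between 76.8 and 184 in the other 10.

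Because a high library lies in each lineage, the lineage means of the P2 passenger had a wide spread, with 175 ± 114 normalized counts in exercised-lineage and 161 ± 110.2 in sedentary-lineage mice (SD, n = 6 each). Stem means were 149 (R31) and 202 (R41) in the exercised lineage, against 212 (S11) and 109.8 (S41) in the sedentary lineage. The fold was 0.11 (SE 0.39, 95% confidence interval -0.72 to 0.94, limma adjusted p = 0.959). This interval allows a ratio from 0.606 to 1.92. Without exercised-lineage mouse 4 the fold was -0.17, and without sedentary-lineage mouse 2 it was 0.40. Without sedentary-lineage mouse 6 it was -0.0039. With both exercised-lineage mouse 4 and sedentary-lineage mouse 2 left out, the fold was 0.12 (limma adjusted p = 0.808). The means were then 131 ± 38.2 in exercised-lineage and 116 ± 14.1 in sedentary-lineage mice (SD, n = 5 each).

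Within a library, the P1 passenger exceeded the P2 passenger in 10 of 12 mice, 5 in each lineage. Of the passenger counts, P1 made up 55.5% ± 11.4 in exercised-lineage mice and 56.2% ± 13.7 in sedentary-lineage mice (SD, n = 6 each). In the 10 libraries where P1 was the higher it made up 55.4% to 66.6%. It was 33.7% in exercised-lineage mouse 4 and 29.2% in sedentary-lineage mouse 2, the only libraries of the 12 where P2 was the higher. The log2 ratio of P1 over P2 averaged 0.32 ± 0.68 over exercised-lineage mice and 0.35 ± 0.83 over sedentary-lineage mice (SD, n = 6 each). Its difference of -0.04 was within the spread (exact permutation p = 0.883, 0.883 adjusted over 3 tests), and it was 0.22 without exercised-lineage mouse 4. It also turned above 0 without sedentary-lineage mouse 1, 3 or 4 (0.050, 0.048 and 0.090), and it was -0.10 without both mice of the high P2 passenger (exact permutation p = 0.540). How many guide reads came from each gene cannot be read from the shared row.

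For every 1000 guide counts exercised-lineage mice had 0.738 ± 0.266 passenger counts and sedentary-lineage mice 0.636 ± 0.290 (SD, n = 6 each). The lowest value was 0.372 in sedentary-lineage mouse 6. The highest were 1.20 in exercised-lineage mouse 4 and 1.19 in sedentary-lineage mouse 2. The log2 ratio of passengers over guide differed by 0.25, exercised minus sedentary lineage, within the spread of the mice (exact permutation p = 0.422, 0.714 adjusted over 3 tests). It averaged -10.47 ± 0.47 over exercised-lineage and -10.72 ± 0.57 over sedentary-lineage mice (SD, n = 6 each). Without the mice of the high P2 passenger, the difference was 0.30 (exact permutation p = 0.1905). Over the mean of all libraries, Mir-128 had 0.664 passenger counts per 1000 guide counts. Families in which either kind of row had a summed mean below 10, or with a row that joins guide and passenger names, were left out. Families with almost no passenger counts are therefore missing, and a ratio as low as that of Mir-128 could appear only for an abundant guide. Of the 109 families that remained, Mir-128 was the 6th lowest, and the median family had 46.2. The 5 families below it, named after their values were seen, were Mir-101 (0.0745), Mir-21 (0.0999), Mir-218 (0.107), Mir-143 (0.2995) and Mir-26 (0.335), and the next above it was Mir-146 (1.63).

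**Figure D3:**
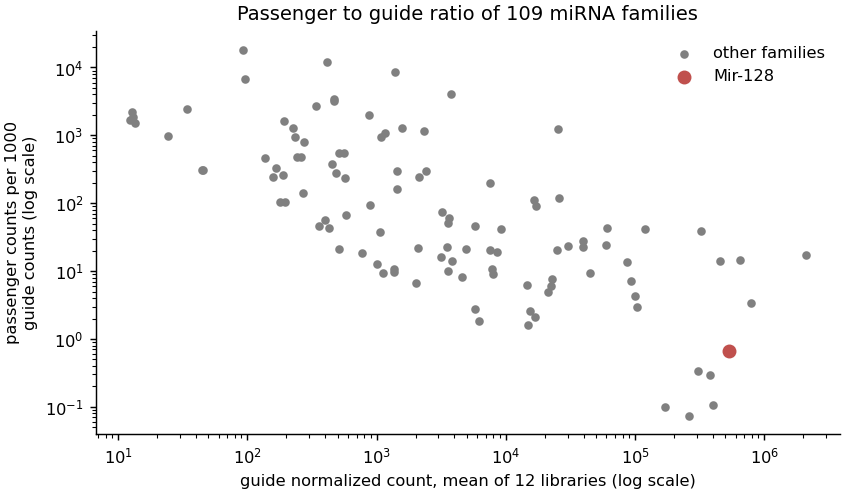
Passenger counts per 1000 guide counts against the guide's mean normalized count for 109 miRNA families, both on log scales, each point the mean over 12 libraries. Mir-128, in red, lies at 0.664, among the lowest values and the most abundant guides. The filter on summed means lets such low ratios appear only for abundant guides.

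Across mice, no relation between the arms of Mir-128 had a permutation p below 0.05 after adjustment over 3 relations. Over all 12 libraries, the guide and the P1 passenger had a Pearson r of 0.27 (permutation p = 0.408) and a Spearman rho of 0.26 (permutation p = 0.418), and r was -0.081 without the 2 libraries farthest from the median guide level. The 2 high libraries form a cluster of their own for the P2 passenger, so relations with it were taken over the other 10. There the guide and the P2 passenger had r = 0.085 (permutation p = 0.821) and rho = 0.0061 (permutation p = 1.0), with r = 0.016 without the 2 farthest. The passengers had r = 0.66 (permutation p = 0.0434, 0.13 adjusted over 3 relations) and rho = 0.54 (permutation p = 0.113, adjusted 0.339). Without the 2 libraries farthest from the median P1 passenger level, r was 0.20. Leaving out extremes narrows the range and lowers r, so this cannot show that the relation rests on them. Rows of a library share its size factor.

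The arms whose level was most like that of the guide over the 12 libraries were Mir-154-P22_3p (r = 0.87, rho = 0.81), Mir-154-P14_5p (r = 0.86, rho = 0.83), Mir-154-P36_3p (r = 0.86, rho = 0.81), Mir-671_3p* (r = 0.85, rho = 0.91) and Mir-370_3p (r = 0.83, rho = 0.82). Their folds ran from -0.48 to -0.25. The values are a description, since these are the 5 highest of 471 arms compared, whose median r was -0.048. Of the 5, 4 were also among the 5 highest when lineage means were removed, and 3 when libraries were scaled to equal totals.

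Mir-27, which holds the bases of the guide's seed shifted by 1 position, was also abundant, at a level about equal in the lineages. Its 3p row, shared by miR-27a-3p and miR-27b-3p, which differ at 1 base (C19U, miR-27a first), held 94816 to 121861 normalized counts in exercised-lineage mice and 86492 to 118937 in sedentary-lineage mice. The fold was 0.04 (SE 0.10, 95% confidence interval -0.16 to 0.25, limma adjusted p = 0.908). The Mir-128 guide exceeded it 3.70 to 7.99 times over the libraries. The row Mir-216-P1a_3p*, matched to miR-216a-3p by number, was near the lower end of the table, at most 33.3 in exercised-lineage and 25.5 in sedentary-lineage mice, and it was listed at 0 in 3 libraries.

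Among the neuron-enriched families, 35 of 36 rows were tested and 0 were called. Their folds were above 0 for 20 and below 0 for 15, with a median of 0.05, against -0.0013 for all tested arms. The guide of Mir-128 took 15.8% ± 2.92 of the counts of these families in exercised-lineage mice and 16.6% ± 1.80 in sedentary-lineage mice (SD, n = 6 each). The difference was within their spread (exact permutation p = 0.5325). Of the most abundant row of each of the 13 families, the lowest fold belonged to Mir-7 5p, a miRNA that targets alpha-synuclein (-0.56, SE 0.33), and the highest to Mir-124 3p, the miRNA of neuronal identity (0.38, SE 0.20). Both had a limma adjusted p of 0.532, and the Mir-128 guide's -0.18 was the second lowest.

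**Figure D4:**
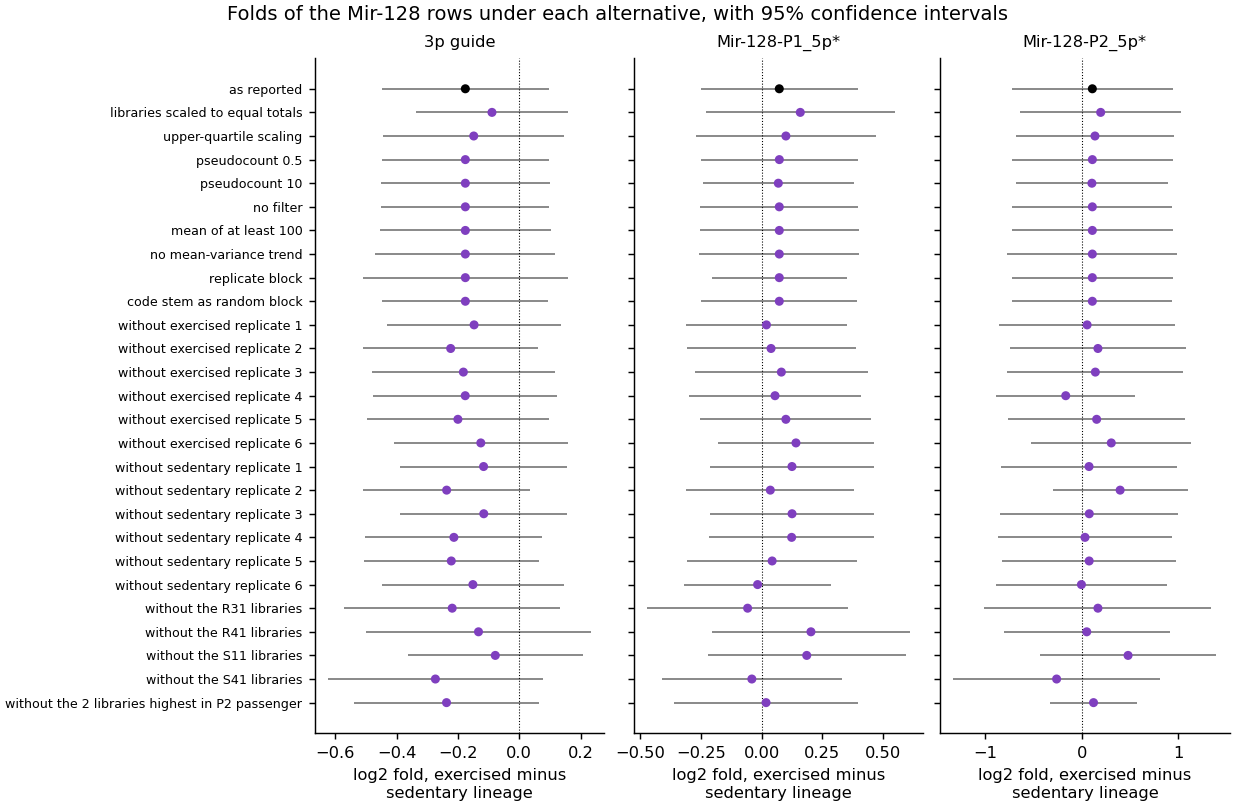
Log2 folds of the 3 Mir-128 rows, exercised minus sedentary lineage, with limma 95% confidence intervals, as reported (black) and under each alternative (purple); the horizontal scales differ between panels. The guide stays between -0.27 and -0.08, and the passenger folds lie on both sides of 0.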

How the data were processed

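Small RNA was sequenced from 12 hippocampi, with Qiagen's miRNAeasy kit and the NEB Next small RNA set per the labels' protocols; molecular identifiers are not mentioned, so PCR copies count as reads. The deposited values are a signal: reads of each miRNA arm over a size factor for that library. Bowtie 1.3.0, build mm10 and DESeq2 are named per the submitters' processing notes; trimming, mismatches, multi-mapping reads and row filters are not given in the sources used. The values are not whole numbers, although their columns are named raw. In each library 100% were whole multiples, within 0.01, of 1 step, taken as 1 read to give depth and Poisson intervals. The smallest positive value stood for 2 to 6 reads, so the step is inferred and no count model was run.

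Arms with a mean of at least 10 (474 of 513) were tested with limma 3.58.1 in R 4.3.3 (mean-variance trend) on log2(value + 1), exercised minus sedentary lineage, with Benjamini-Hochberg adjustment over all tested arms. The scale understates differences of low values. Single values were compared by exact permutation over 924 assignments (smallest possible p 0.00217), and correlations with 100000 permutations, in Python 3.11.15 with scipy 1.17.1.

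Members, marker lists and tests were chosen with earlier results of these data known. Named arms are the Mir-128 rows, the rows next to the guide in level, the 5 most similar arms by r, arms holding the guide's seed near their 5′ end, and leading rows of marker families. The labels number the mice within each lineage. Whether mice with a shared code stem are related is not stated, so the stem was also fitted as a random block.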

Additional observations from a re-analysis of the deposited data

Results flagged for a closer look

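In each lineage 1 mouse stood apart for the Mir-128-P2 passenger. Among 6 exercised-lineage mice, mouse 4 had the highest Mir-128-P2_5p* level at 397 normalized counts, and among 6 sedentary-lineage mice, mouse 2 had the highest at 384. The gap from each to the next mouse was divided by the range of its lineage. This quotient was 0.665 for exercised-lineage mouse 4 and 0.892 for sedentary-lineage mouse 2, above Dixon's 95% critical value of 0.625. It was taken on normalized counts, not on the log2 scale of the folds. Whether the flags for the level hold on the log2 scale was not tested. The same mice had the lowest log2 ratio of the P1 over the P2 passenger, -0.97 in exercised-lineage mouse 4 and -1.27 in sedentary-lineage mouse 2, which rests on the same counts. These are 4 flags in 12 groups of 6 values looked at, and they come from 2 libraries. Chance flags about 1 in 20 groups when values are normal and groups independent. The 12 groups share counts, so the number of flags cannot be weighed against that rate. The guide, its share, the P1 passenger and the ratio of passengers to guide had none.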

How the results depend on the processing

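Of 135 values of the 6 Mir-128 measures under alternatives, 122 kept their direction and none passed 0.05 (lowest p, adjusted for folds, 0.115). The 13 that turned belong to the passenger folds, the passenger ratio and the guide's share. As reported, the folds were 0.07 (P1) and 0.11 (P2), and the ratio differed by -0.04. The share differed by -0.39 percentage points. Without the R31 libraries the P1 passenger's fold was -0.058. Without the S41 libraries it was -0.040, the P2 passenger's fold -0.26 and the log2 ratio of P1 over P2 0.22. Without the R41 libraries that ratio was 0.15 and the guide's share differed by 0.29 percentage points.

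With each mouse left out in turn, the guide's fold ran from -0.24 to -0.12, the P1 passenger's from -0.017 to 0.14, the P2 passenger's from -0.17 to 0.40, the share difference from -0.65 to -0.15, the passenger ratio's difference from -0.36 to 0.22 and that of passengers over guide from 0.095 to 0.45. The guide's fold was -0.09 with libraries scaled to equal totals and -0.08 without the S11 libraries.

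The number of arms called was 0 in each of 27 fits, with 16 to 48 arms at an unadjusted p below 0.05. Mouse numbers do not pair the lineages: deviations of same-numbered mice correlated at -0.17 to 0.15, and 1 of 6 mice of each lineage correlated best with its own number. With the replicate block, 0 arms were called, the guide's limma adjusted p was 0.765 against 0.596 without it, and its fold stayed -0.18. Leaving out the 2 mice with the high P2 passenger was chosen after seeing the data. TMM scaling, edgeR and DESeq2 were not run, since they were planned for recovered reads. With the code stem as a random block, limma adjusted p-values were 0.590 for the guide, 0.898 for the P1 passenger and 0.958 for the P2 passenger, against 0.596, 0.901 and 0.959. Passenger rows rest on 77 to 375 reads. The P2 passenger's 95% interval was -0.33 to 0.57 without the 2 mice, against -0.72 to 0.94 with them.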

Other observations

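The arm least like the Mir-128 guide over the 12 libraries was Mir-32_5p, with r = -0.85 and rho = -0.79, and with r = -0.61 when libraries were scaled to equal totals. Under that scaling the arms most like the guide were Mir-154-P14_5p, Mir-744_5p, Mir-671_3p*, Mir-154-P22_3p and Mir-10-P2b_5p, with r from 0.80 to 0.82. These are the extremes of 471 arms chosen after their values were seen, and are given as a description.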
